A study of Mus musculus with 20 samples.

Results

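Genes of lipid uptake and lipid handling were followed over the day in lymphatic endothelial cells (LECs) of mouse skin: Cd36, Fabp4, Fabp5, Lpl, Gpihbp1, Scarb1, Plin2, Pparg, Angptl4 and Pdk4. These 10 genes were taken by their symbols from the 24062 genes of the count tables, and all 10 were found and had enough reads to be tested. LECs were sorted as CD31+podoplanin+ cells from the ear skin of wild type male C57BL/6 mice (C57BL/6N in the study's methods) at postnatal day 56, kept in a light-dark cycle. Zeitgeber time (ZT) counts the hours since lights on, so ZT1 and ZT7 lie in the light phase and ZT13 and ZT19 in the dark phase. All 4 time points had 5 replicates, 20 libraries in all, and each replicate was a pool of 4 ears from 2 mice. No group was treated, and time of day was the only difference that the labels give between the groups. The methods describe light cabinets with shifted cycles, and where these were used cabinet and time of day cannot be told apart.

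Lymphatic vessels of the skin drain fluid, cells and lipid from the tissue, and LECs can take up fatty acids and burn them. Triglyceride that circulates in lipoproteins is cut by lipoprotein lipase, which is held at the vessel wall of blood capillaries by GPIHBP1. Freed fatty acids enter cells with the help of CD36, are carried inside by fatty acid-binding proteins and are either stored in lipid droplets, which perilipins coat, or oxidized. PPARγ, encoded by Pparg, is a fatty acid-sensing nuclear receptor, and Cd36, Fabp4, Plin2, Angptl4 and Pdk4 are known targets of receptors of this family.

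Between 4475111 and 42002363 reads per library were counted on genes. The share of reads that fell on genes rather than on no gene had a median of 24.8% at ZT1 (20.2% to 29.5%), 17.5% at ZT7 (12.7% to 62.3%), 22.9% at ZT13 (20.1% to 79.9%) and 64.0% at ZT19 (35.0% to 81.6%). The median depth was 22161080 reads at ZT19 and 6139585 to 10083683 at the other time points. The LEC genes Prox1 (1276 to 4490.0 normalized counts), Lyve1 (6393 to 29894) and Mmrn1 (15596 to 58654) were present in every library, whereas Ccl21a had no count in any of them. The study measured Ccl21 mRNA by qPCR in sorted dermal LECs, and multi-mapped reads are not part of the counts used here. Why Ccl21a had no count was not tested. The 8 LEC markers, these genes among them, summed to 75436 to 98973 normalized counts at ZT1 and 43860 to 95264 at ZT7. Their sum was 70559 to 108090 at ZT13 and 62864 to 83856 at ZT19. Keratinocyte genes were abundant as well. The 10 keratinocyte markers summed to 28917 to 60971 normalized counts at ZT1, 54306 to 155211 at ZT7, 8295 to 26408 at ZT13 and 81659 to 166642 at ZT19, and 4 of the 10 differed among the time points. The keratinocyte sum exceeded the LEC sum in every ZT7 library and in every ZT19 library but replicate 2. At ZT1 and ZT13 it was the lower of the sums in every library. A normalized count is the number of reads divided by the relative effective size of the library, and all levels below are normalized counts unless another scale is named.

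By edgeR's quasi-likelihood test at an adjusted p of 0.05, no gene of the 10 passed for time of day, where 0.422% of all genes tested did. The lowest adjusted p belonged to Plin2, the coat protein of lipid droplets (adjusted p = 0.0534, edgeR with Benjamini-Hochberg adjustment), which was most abundant at ZT19. Fabp4 followed (adjusted p = 0.132), with its highest mean at ZT13, and then Fabp5 (adjusted p = 0.231), with its highest mean at ZT19. These 3 genes had an unadjusted p under 0.05, as had 15.7% of all genes. DESeq2 called Fabp4 (adjusted p = 0.00881) and Plin2 (adjusted p = 0.0116), 2 of 10 genes where it called 3.77% of the 17830 genes that its own filter left. No gene of the 10 passed edgeR's test for a 24-h rhythm (0.0312% of all genes passed). Fabp4, Plin2 and Pparg had an unadjusted p under 0.05 in that test, against 9.23% of all genes, and DESeq2 called Fabp4 and Plin2, against 0.791% of 10625 genes that its filter left, which did not include Pdk4.

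Between pairs of time points, edgeR called 0 of the 60 differences that the 10 genes and 6 pairs give, and 10 had an unadjusted p under 0.05. Of these 10, none lay between ZT7 and ZT1 (4.97% of all genes), 1 between ZT13 and ZT1 (5.37%), 3 between ZT19 and ZT1 (21.6%), 1 between ZT13 and ZT7 (2.59%), 2 between ZT19 and ZT7 (19.7%) and 3 between ZT19 and ZT13 (19.2%). The share of all genes called by edgeR was 0.00521% for ZT7 against ZT1, 0.0208% for ZT13 against ZT1, 0.0156% for ZT19 against ZT1, 0.0937% for ZT13 against ZT7, 0.0156% for ZT19 against ZT7 and 0.588% for ZT19 against ZT13. DESeq2 called 5 of the 60, and its filter left between 9743 and 21402 genes per pair, over which its shares are given. Pdk4 got no adjusted p from it between ZT13 and ZT1. The 5 calls were Fabp4 between ZT13 and ZT1 (0.79% of 9743 genes), Plin2 between ZT19 and ZT7 (12.2% of 21402), and Fabp4, Fabp5 and Plin2 between ZT19 and ZT13 (9.68% of 20964). It called none of the 10 genes between ZT7 and ZT1 (0.0854%), ZT19 and ZT1 (10.8%) or ZT13 and ZT7 (0.639%). The highest mean lay at ZT19 for 5 of the 10 genes, at ZT7 for 3, at ZT13 for 2 and at ZT1 for none. Of the 5 highest at ZT19, Fabp5, Plin2 and Pparg were so under each of the 4 normalizations tried, and Lpl and Scarb1 were not. Among all genes tested, 27% had the highest mean at ZT19, 27.7% at ZT7, 18.1% at ZT13 and 27.2% at ZT1.

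**Figure D1:**
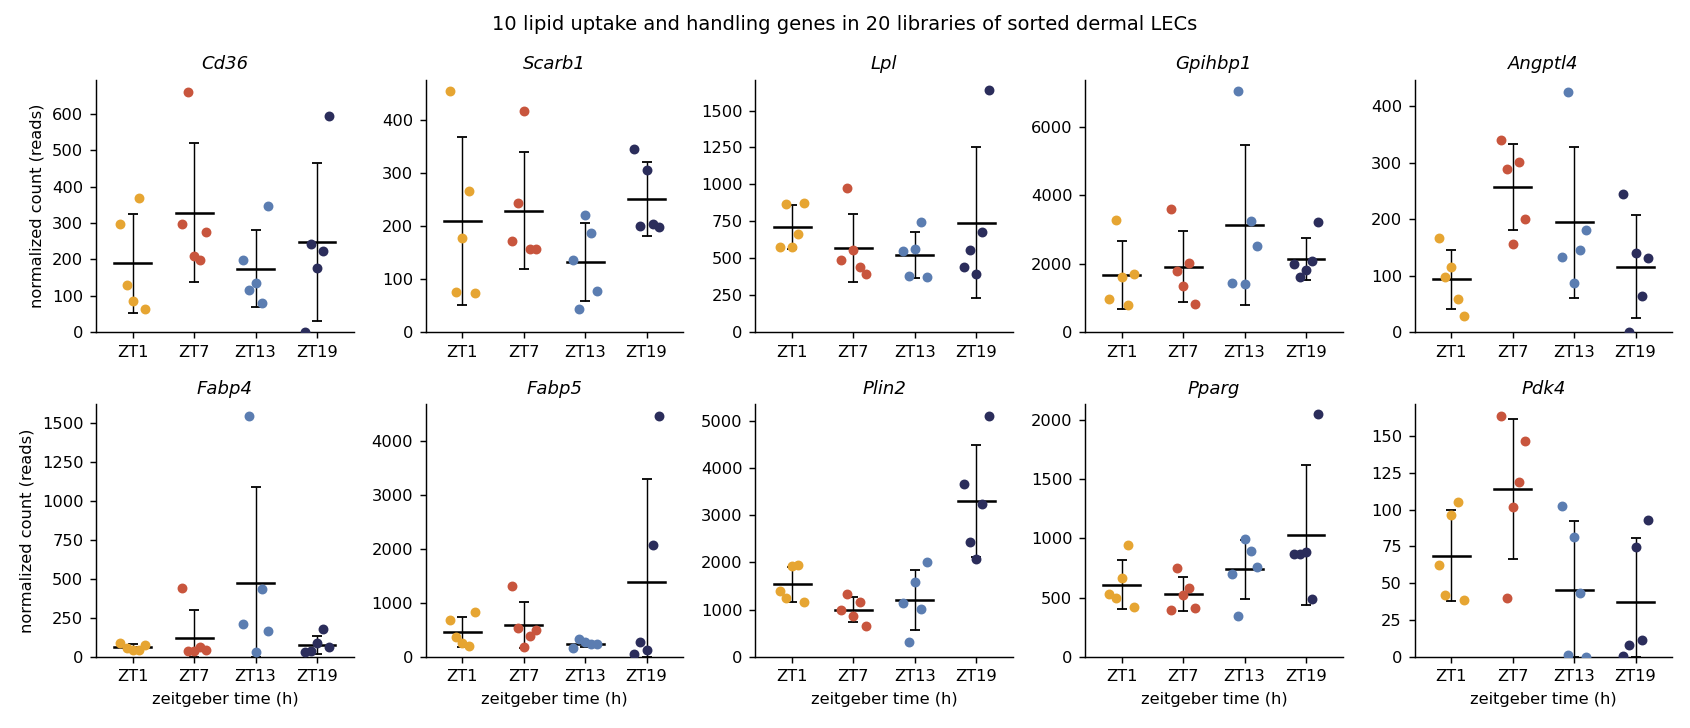
Normalized counts (vertical axis, from 0) of the 10 genes at the 4 zeitgeber times (horizontal axis). Each point is 1 library, the thick line is the mean and the bars are ± SD (n = 5), stopped at 0. The 5 ZT19 points of Plin2 lie at 2059.98 or above and all other points at 2003 or below, and ZT19 points of Fabp5 lie both near 54.1 and at 4451.

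Per kb of transcript, Gpihbp1 was the most abundant of the 10 genes, with a median of 2177 normalized counts per kb over the 20 libraries. Plin2 (719.96), Pparg (385), Fabp5 (302) and Lpl (136) came next, and Scarb1 (76.3), Fabp4 (69.2), Cd36 (60.1), Angptl4 (43.2) and Pdk4 (19.7) were lower. Gpihbp1 exceeded Plin2, Plin2 exceeded Pparg, and Fabp5 exceeded Lpl in 19 of 20 libraries each. Pparg and Fabp5 were not separated, with Pparg the higher of them in 10 of 20 libraries. Scarb1 and Fabp4 were not separated either, since Scarb1 was higher in 11. The ranges of all 9 neighbouring pairs in this order overlapped. The span over libraries differed more than the medians of neighbours did: Fabp4 ran from 30.8 to 1723 per kb, while Lpl ran from 90.9 to 398.

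**Figure D2:**
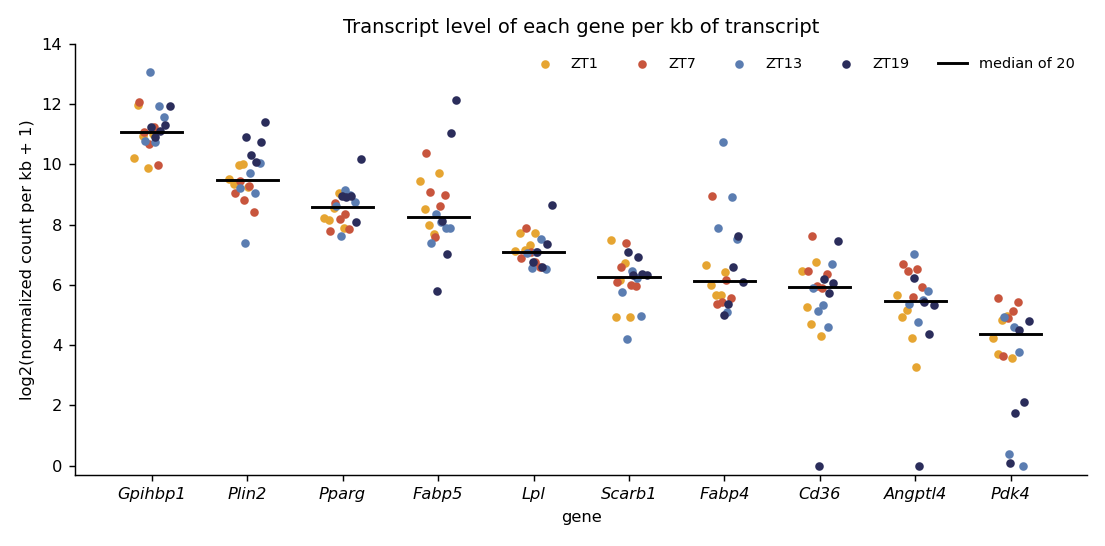
Level of each gene as log2 of the normalized count per kb of its principal transcript plus 1 (vertical axis), with the genes ordered by median (horizontal axis). Each point is 1 of the 20 libraries, coloured by zeitgeber time, and the line is the median of 20. The points at 0 are the libraries in which Cd36, Angptl4 or Pdk4 had no read.

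Of the receptors, Cd36 (chr5:17781690-17888801, GRCm38, minus strand), which binds long-chain fatty acids and speeds their entry, varied as much within a time point as between them. Its levels in replicates 1 to 5 were 299, 129, 85.7, 368 and 64.7 at ZT1 and 297, 661, 209, 199 and 277 at ZT7. They were 199, 116, 135, 78.9 and 347 at ZT13 and 0, 244, 178, 224 and 596 at ZT19. All 4 time points overlapped, and ZT19 held both an empty library and one of the highest. The count of 0 in replicate 1 of ZT19 allows up to 0.766 normalized counts there, in a library of 36022409 reads. The mean was 329 ± 191 (SD, n = 5) at ZT7 and 175 ± 105 at ZT13, and the difference of 0.91 ± 0.82 (SE) on the log2 scale was not called (adjusted p = 0.9999, edgeR). Without replicate 2 of ZT7 it was 0.48, and without replicate 5 of ZT13 it was 1.32. Over the 20 libraries the genes most like Cd36 in log2 level were Tank (r = 0.94) and Klhdc9 (r = 0.93), among 12563 candidates that share the same libraries and depths, and without the library at 0 these r were 0.71 and 0.67.

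Scarb1 (chr5:125277087-125341094, minus strand) encodes SR-BI, the receptor that takes cholesterol from high-density lipoprotein. It ranged from 74.2 to 455 at ZT1, from 157 to 417 at ZT7, from 44.5 to 220.2 at ZT13 and from 198 to 346 at ZT19. The ZT19 libraries were the most uniform and the ZT13 libraries reached lowest, but the time points overlapped. The mean of 251 ± 69.9 (SD, n = 5) at ZT19 exceeded that of 133 ± 73.2 at ZT13 by 0.92 ± 0.54 (SE) on the log2 scale, which was not called (adjusted p = 0.351, edgeR). Normalized by size factors or upper quartile, or by total counts alone, its highest mean moved to ZT7. The pattern nearest to Scarb1 was that of Itga7 (r = 0.86), an integrin subunit, followed by Fam83f (r = 0.81).

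Lpl (chr8:68880491-68907448, plus strand), the lipase itself, had the smallest ratio of the highest to the lowest library among the 10 genes. It ranged from 578 to 876 at ZT1, from 395 to 972 at ZT7, from 374 to 748 at ZT13 and from 396 to 1638 at ZT19. Replicate 5 of ZT19 was the highest of the 20 libraries, and the other 4 of ZT19 lay within the range of the rest. Summed adipocyte markers (3415) and sebocyte markers (3814) were also highest in this replicate, and their part in Lpl was not tested. The mean at ZT19 (742 ± 513, SD, n = 5) exceeded that at ZT13 (523 ± 154) by 0.51 ± 0.37 (SE) on the log2 scale, with an adjusted p of 0.458 (edgeR), and without replicate 5 of ZT19 the difference was -0.011. With size factors in place of TMM, the highest mean of Lpl lay at ZT1.

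Gpihbp1 (chr15:75596628-75599481, plus strand), the anchor and carrier of the lipase and a known gene of capillary blood endothelium, was high in every library. Replicates 1 to 5 read 974, 3286, 1615, 786 and 1700.1 at ZT1 and 3595, 1780.2, 1354, 2011 and 835 at ZT7. They were 1442, 7062, 1402, 3246 and 2522 at ZT13 and 1989.6, 1599.9, 1813, 2084 and 3207 at ZT19. Replicate 2 of ZT13 stood above all others, and the remaining libraries of the 4 time points overlapped. The mean was 3135 ± 2328 (SD, n = 5) at ZT13 and 1672 ± 985 at ZT1, a difference of 0.91 ± 0.45 (SE) on the log2 scale (adjusted p = 0.942, edgeR). Without replicate 2 of ZT13 it was 0.36. The genes with the most similar pattern were Ly6e (r = 0.89) and Tm4sf1 (r = 0.89).

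Angptl4 (chr17:33773750-33781830, minus strand), a secreted inhibitor of the lipase that fasting and hypoxia are known to induce, was lowest on average at ZT1 and highest at ZT7. Its replicates 1 to 5 were at 166, 97.3, 116, 58.8 and 28.7 at ZT1 and 339, 289, 157, 302 and 201 at ZT7. They were 133, 425, 87.3, 146 and 179.9 at ZT13 and 245, 0, 139.5, 64.5 and 131 at ZT19. The ranges of ZT1 and ZT7 met only narrowly, since the lowest ZT7 library (157) lay below the highest ZT1 library (166). Replicate 2 of ZT19 had no read, which allows up to 0.991 normalized counts. The mean was 257 ± 75.8 (SD, n = 5) at ZT7 and 93.3 ± 52.8 at ZT1, a 2.75-fold difference, or 1.46 ± 0.82 (SE) on the log2 scale, with an adjusted p of 0.999 (edgeR). Atp6v0e2 (r = 0.91) and Cfb (r = 0.90) were closest to it in pattern, and without the library at 0 these r were 0.66 and 0.52.

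Of the intracellular carriers, Fabp4 (chr3:10204088-10208576, minus strand), known from adipocytes, macrophages and capillary endothelium, had its highest mean at ZT13. Its levels in replicates 1 to 5 were 89.0, 57.0, 45.1, 44.9 and 76.6 at ZT1 and 439, 36.0, 38.1, 63.9 and 41.2 at ZT7. They were 209.8, 1544, 29.8, 437 and 163 at ZT13 and 27.6, 36.4, 85.9, 175 and 60.2 at ZT19. Of the 5 ZT13 libraries, 4 exceeded every ZT1 library, while replicate 3 of ZT13 lay below all of them. Replicate 1 of ZT7 stood apart from the other 4 of its time point. The mean was 477 ± 614 (SD, n = 5) at ZT13 and 62.5 ± 19.6 at ZT1, a 7.62-fold difference. On the log2 scale it was 2.93 ± 0.85 (SE), with an adjusted p of 0.483 in edgeR's pairwise test and 0.0224 in DESeq2's. Against ZT19 (77.1 ± 59.5) the ZT13 mean was higher by 2.64 ± 0.84 (SE) on the log2 scale (adjusted p = 0.0968, edgeR). Fabp4 passed edgeR's test among the 4 time points when replicate 1 of ZT7 (adjusted p = 0.0345) or replicate 3 of ZT13 (adjusted p = 0.0409) was left out. Without replicate 2 of ZT13 the adjusted p of this test was 0.484 and the difference from ZT1 was 1.74 on the log2 scale. The fitted 24-h curve over all libraries peaked at 12.1 h. Its nearest patterns were those of Mapk3 (r = 0.87) and Clca1 (r = 0.81).

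The summed level of blood endothelial markers varied with Fabp4 and Gpihbp1 over the libraries, while the mean of the markers' log2 levels did so little. The 9 blood endothelial markers, of which Emcn and Plvap gave most counts, summed to 7209 to 15856 normalized counts at ZT13 and to 5484 to 8542 at ZT1, 5306 to 9684 at ZT7 and 6494 to 10936 at ZT19. The libraries with the highest Fabp4, replicate 2 of ZT13 and replicate 1 of ZT7, had the highest sums of their time points (15856 and 9684). At ZT1 and ZT19 the library with the highest Fabp4, replicate 1 (89.0) and replicate 4 (175), had sums of 6568 and 6986, under the highest of their time points. Replicate 5 of ZT13, with the second highest sum of the series (14633), had Fabp4 at 163. Over the 20 libraries, log2 Fabp4 correlated with the log2 of this sum at r = 0.69, and at r = 0.55 after each time point's mean was taken out. For Gpihbp1, r was 0.82 both ways. With the mean of the markers' log2 levels, which gives weight to the sparse ones, r was 0.11 for Fabp4 and -0.11 for Gpihbp1. None of the 9 markers differed among the time points in edgeR's test, and Flt1, Cd34 and Vwf were at 0 in 1 library each and Ly6c1 in 2. Blood endothelium carries CD31 but lacks podoplanin and so lies outside the gate. The part of its RNA in the levels of both genes was not tested, and in sorted pools fewer cells of a type and less RNA per cell cannot be told apart.

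**Figure D3:**
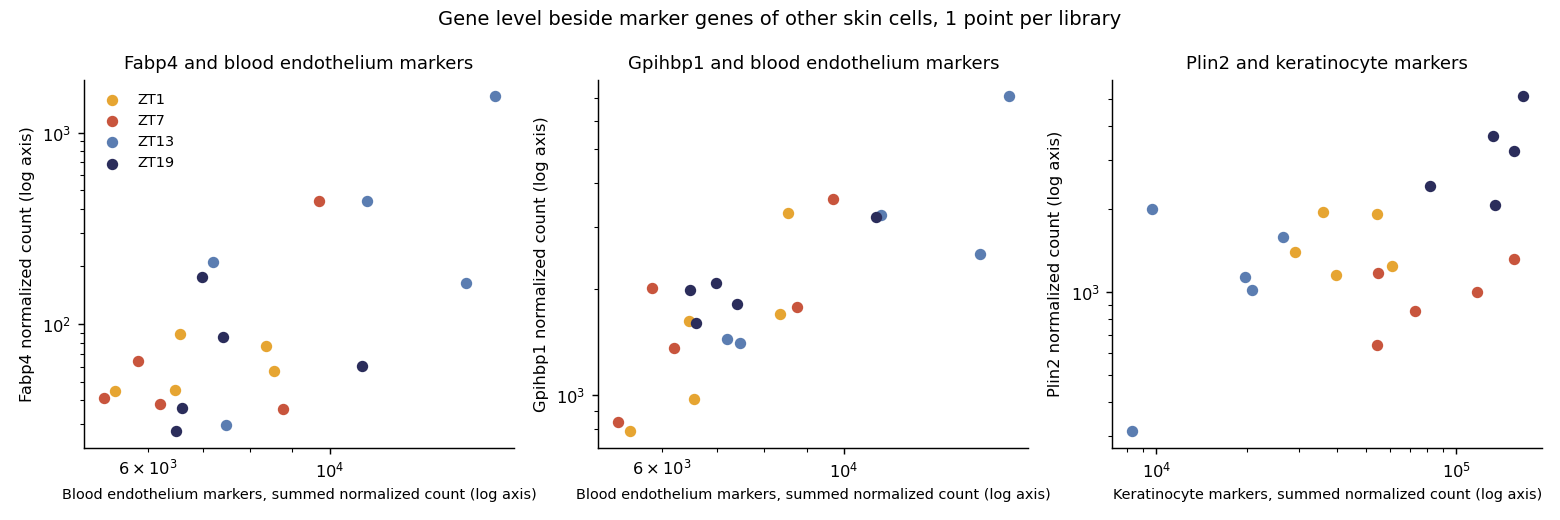
Normalized count of a gene (vertical axis, log scale) against the summed normalized count of a marker list (horizontal axis, log scale), 1 point per library, coloured by zeitgeber time. Replicate 2 of ZT13 is the top right point for Fabp4 (1544) and Gpihbp1 (7062), and the 5 ZT19 libraries lie at the top right for Plin2, at keratinocyte sums from 81659 to 166642.

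Fabp5 (chr3:10012548-10016607, plus strand), the epidermal fatty acid-binding protein, is abundant in keratinocytes and is also made by endothelium. Normalized counts of replicates 1 to 5 were 685, 361, 251, 201 and 833 at ZT1 and 1304, 539, 188, 388 and 499 at ZT7. They were 165, 321, 266, 231 and 232 at ZT13 and 54.1, 275, 128, 2061 and 4451 at ZT19. The ZT13 libraries were uniform, whereas replicates 4 and 5 of ZT19 were the highest of all 20 libraries and replicates 1 and 3 of ZT19 the lowest. The mean was 1394 ± 1900 (SD, n = 5) at ZT19 and 243 ± 57.2 at ZT13, a 5.73-fold difference, or 2.52 ± 0.76 (SE) on the log2 scale (adjusted p = 0.0911 in edgeR, 0.0218 in DESeq2). Without replicate 5 of ZT19 it was 1.37. The same replicates 4 and 5 of ZT19 had the highest keratinocyte sums of the series (155785 and 166642), while replicate 1 of ZT19, with a sum of 132936, had the lowest Fabp5. Replicate 2 of ZT7, with a nearly equal sum of 155211, had Fabp5 at 539. Over the 20 libraries log2 Fabp5 and the log2 keratinocyte sum correlated at r = 0.30, and at r = 0.16 within time points. Among the marker sums the sebocyte sum had the highest r with Fabp5 (0.53). Keratinocytes lack CD31 and lie outside the gate of the sort, whose purity the study checked each time. Keratinocyte markers such as Krt14 (2936 to 72834 normalized counts) were nevertheless read in every library. The part of keratinocyte RNA in Fabp5 was not tested. Cops5 (r = 0.81) and Id1 (r = 0.80) had the patterns most like that of Fabp5.

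Plin2 (chr4:86648386-86670060, minus strand) encodes the perilipin that coats lipid droplets in most cell types. Its levels in replicates 1 to 5 were 1398, 1239.7, 1913, 1947 and 1152 at ZT1 and 999, 1321, 853, 1167 and 644 at ZT7. They were 1132, 313, 1575, 1013 and 2003 at ZT13 and 3660.0, 2427, 2060.0, 3237 and 5102 at ZT19. All 5 ZT19 libraries lay above all 15 others, as for 15 of the 19209 genes tested (0.0781%), but the gap was narrow, from 2003 in replicate 5 of ZT13 to 2059.98 in replicate 3 of ZT19. Under size factors, upper quartile or total counts the lowest ZT19 library (1841, 1849 and 2245) fell below the highest other one (2059, 2093 and 2349). For none of the other 9 genes were 2 time points free of overlap in any pair. In either direction that held for 1.75% of all genes between ZT7 and ZT1, 1.47% between ZT13 and ZT1, 8.56% between ZT19 and ZT1, 1% between ZT13 and ZT7, 1.94% between ZT19 and ZT7 and 2.48% between ZT19 and ZT13. The share of all genes with ZT19 wholly higher was 2.38% against ZT1, 0.921% against ZT7 and 1.87% against ZT13.

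The mean of Plin2 was 3297 ± 1192 (SD, n = 5) at ZT19, against 1530 ± 376 at ZT1, 997 ± 264 at ZT7 and 1207 ± 635 at ZT13. The difference of ZT19 from ZT7 was 3.31-fold, or 1.73 ± 0.38 (SE) on the log2 scale (adjusted p = 0.107 in edgeR, 0.00293 in DESeq2). From ZT13 it was 1.45 ± 0.38 on the log2 scale (adjusted p = 0.0677 in edgeR, 0.0192 in DESeq2), and from ZT1 it was 1.11 ± 0.38 (adjusted p = 0.103, edgeR). The light-phase and early dark time points differed less from each other. Plin2 was higher at ZT1 than at ZT7 by 0.62 ± 0.37 on the log2 scale (adjusted p = 0.999, edgeR). The 24-h curve fitted to Plin2 peaked at 19.7 h, with a log2 amplitude of 0.88 (adjusted p = 0.16, edgeR). Plin2 passed edgeR's test among the time points when replicate 2 (adjusted p = 0.0362) or replicate 5 (adjusted p = 0.0348) of ZT13 was left out, and without the latter also between ZT19 and ZT13 (adjusted p = 0.0291). Without replicate 5 of ZT19 the adjusted p among the time points was 0.213. Adh7 (r = 0.91), an alcohol dehydrogenase that acts on retinol, and Rcn1 (r = 0.91) were nearest to it.

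Other measures moved with Plin2. The log2 odds that a read fell on a gene correlated with log2 Plin2 at r = 0.55 over the 20 libraries and at r = 0.30 within time points, and with these odds in the model the difference of ZT19 from ZT7 was 1.41 on the log2 scale and the adjusted p among the time points was 0.32 (edgeR). The keratinocyte sum correlated with Plin2 at r = 0.55, the adipocyte sum at r = 0.61 and the fibroblast sum at r = 0.49, all on the log2 scale. With the mean of the markers' log2 levels these r were 0.48, -0.20 and 0.26. At ZT7 keratinocyte sums were 54306 to 155211 and Plin2 was at 644 to 1321. Of 10 adipocyte markers Cidea gave most of the counts, while Adipoq was at 0 in 9 libraries, Cfd in 11, Retn in 10 and Plin1 in 6. Replicate 5 of ZT19 had the highest Plin2 (5102) together with the highest keratinocyte, sebocyte (3814) and adipocyte (3415) sums. Without it, Plin2 differed between ZT19 and ZT7 by 1.52 on the log2 scale. These cell types lack CD31 and lie outside the gate of the sort, and the part of their RNA in this difference was not tested.

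Pparg (chr6:115360951-115490399, plus strand) encodes PPARγ, which endothelium is known to express. In replicates 1 to 5, Pparg was at 527, 498, 662, 944 and 417 at ZT1 and 392, 747, 518, 584 and 412 at ZT7. They were 699, 348, 994, 893 and 755 at ZT13 and 871, 864, 884, 484 and 2045 at ZT19. Of the ZT19 libraries, 4 exceeded every ZT7 library and replicate 4 did not, and replicate 5 of ZT19 was the highest of all 20. The mean was 1029.7 ± 592 (SD, n = 5) at ZT19 and 531 ± 144 at ZT7, a difference of 0.96 ± 0.36 (SE) on the log2 scale (adjusted p = 0.151, edgeR). Without replicate 5 of ZT19 it was 0.55. That library also had the highest adipocyte (3415) and sebocyte (3814) sums of the series, and the part of those cells' RNA in Pparg was not tested. The fitted 24-h curve peaked at 17.9 h (adjusted p = 0.522, edgeR). Over the 20 libraries log2 Pparg and log2 Plin2 correlated at r = 0.72, and at r = 0.70 within time points, the highest value among the 10 genes. Both also varied with the log2 odds that a read fell on a gene (r = 0.43 for Pparg, 0.55 for Plin2), and with these odds in the model the adjusted p of Pparg among the time points was 0.774, against 0.344 without them (edgeR). Tcp1 (r = 0.81) and Arl1 (r = 0.79) followed Pparg more closely.

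Since Plin2 and Pparg moved together, the 250 bases before a start of each gene are shown, from RefSeq promoters on GRCm38.p6, 5′ to 3′ on the gene's strand. RefSeq entries were matched for 4 of the 10 genes (Cd36, Plin2, Pparg and Pdk4). Capitals mark letters of TAGGTCA, the core of the element that ROR and REV-ERB receptors bind, read on the opposite strand. The Plin2 window is chr4:86670060-86670309 (minus strand), and that of the most downstream of 3 Pparg starts is chr6:115421816-115422065 (plus strand), which holds no match to any motif searched. The windows of the other Pparg starts, not shown, hold 193 and 57 annotated exon bases. Counts per gene symbol do not show which Pparg start was used.
Plin2: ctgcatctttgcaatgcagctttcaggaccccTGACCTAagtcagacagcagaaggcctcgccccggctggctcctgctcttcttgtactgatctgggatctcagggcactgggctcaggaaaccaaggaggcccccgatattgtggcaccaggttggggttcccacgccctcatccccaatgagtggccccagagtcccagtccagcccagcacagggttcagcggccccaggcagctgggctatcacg
Pparg: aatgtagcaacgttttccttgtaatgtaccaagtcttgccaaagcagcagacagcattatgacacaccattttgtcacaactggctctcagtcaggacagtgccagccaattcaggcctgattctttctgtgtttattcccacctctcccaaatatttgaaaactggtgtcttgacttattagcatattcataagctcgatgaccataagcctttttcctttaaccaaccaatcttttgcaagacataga

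Searched on both strands were CACGTG (the E-box of CLOCK and BMAL1, in 6.02% of the 32851 RefSeq promoter windows of this length), TTANGTAA (D-box, 2.06%), TAGGTCA (2.23%), AGGTCA (the half-site of many nuclear receptors, which TAGGTCA contains, 14%), AGGTCANAGGTCA (the paired site of PPAR and RXR, 0.0335%), TGTTCT (the half-site of the glucocorticoid receptor, 16.1%) and TATAAA (12.4%). In Plin2 TAGGTCA lay at positions -218 to -212 from the start. In Cd36 AGGTCA lay at -228 to -223 on the opposite strand, and the 2 upstream Pparg windows held it at -28 to -23 and at -9 to -4. The second of these also held TATAAA at -29 to -24, on the opposite strand. The Pdk4 window held none of the motifs searched. These are matches of letters and not measured binding.

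Pdk4 (chr6:5483351-5496309, minus strand) encodes a kinase that switches off pyruvate dehydrogenase and so turns cells from glucose to fatty acids. It was the least abundant of the 10 genes per kb. Replicates 1 to 5 of Pdk4 read 62.4, 41.9, 96.2, 105 and 38.3 at ZT1 and 163, 40.0, 102, 119 and 147 at ZT7. They were 103, 1.06, 81.3, 43.7 and 0 at ZT13 and 0.26, 8.26, 74.9, 11.6 and 92.8 at ZT19. Low values near 0 occurred at ZT13 and ZT19 only, 2 at ZT13 and 3 at ZT19 being under 12 normalized counts, beside values as high as those of ZT1. The count of 0 in replicate 5 of ZT13 allows up to 0.648. The mean was 114 ± 47.9 (SD, n = 5) at ZT7 and 37.6 ± 42.9 at ZT19, a difference of 1.6 ± 1.24 (SE) on the log2 scale (adjusted p = 0.482, edgeR). Without replicate 5 of ZT19 it was 2.26, and without replicate 1 of ZT19 it was 1.27. Log2 Pdk4 correlated with the log2 odds of a read falling on a gene at r = -0.70 over the 20 libraries and at r = -0.66 within time points, and with these odds in the model the difference was -0.55, in the opposite direction. Palld (r = 0.93) and Dpysl4 (r = 0.92) had the nearest patterns.

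Among the 10 genes, further pairs varied together over the 20 libraries, which share their depth and composition. Fabp4 and Gpihbp1 correlated at r = 0.68 (0.65 within time points), Fabp5 and Lpl at r = 0.58 (0.59) and Cd36 and Fabp5 at r = 0.54 (0.59). Gpihbp1 and Scarb1 varied in opposite directions at r = -0.58 (-0.62). Fabp4 and Plin2, both known targets of PPARγ, correlated at r = -0.49 (-0.52). Values for Cd36 leaned on replicate 1 of ZT19, where it had no read. Without that library Cd36 and Fabp5 correlated at r = 0.35, and Cd36 and Plin2 went from r = -0.14 to r = 0.37. The summed level of 5 sebocyte markers correlated with Cd36 at r = 0.48 on the log2 scale (0.63 without that library) and the blood endothelial sum at r = 0.11 (-0.053). With the mean of the markers' log2 levels r was 0.73 and 0.68, and 0.42 and 0.061 without that library. Both cell types lie outside the gate of the sort, and their part in Cd36 was not tested.

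A list of 70 other lipid genes was read beside the 10, of which 69 were in the tables and 67 had enough reads. None of the 67 passed edgeR's test for time of day or that for a 24-h rhythm. An unadjusted p under 0.05 was found for 17 and 11 of them, against 15.7% and 9.23% of all genes. DESeq2 called 2 among the time points, Slc27a4 (adjusted p = 0.0182) and Apoe (adjusted p = 0.00249), and Apoe also for a 24-h rhythm (adjusted p = 0.02), where it called 3.77% and 0.791% of the genes its filter left. Between ZT19 and ZT1 it called 6 of the 67 lipid genes it tested (10.8% of all genes its filter left). It called 2 of 68 between ZT19 and ZT7 (12.2%) and 3 of 68 between ZT19 and ZT13 (9.68%). In the other pairs it called none (0.0854% to 0.79%), and edgeR called none in any pair. The highest mean lay at ZT7 for 6 of the 67, at ZT13 for 10, at ZT1 for 25 and at ZT19 for 26. By group, the highest mean lay at ZT19 for 10 of 13 genes of oxidation and fuel choice, 6 of 13 of storage and lipolysis, 4 of 11 of synthesis and cholesterol, 3 of 6 of lipases and their regulators, 2 of 8 of uptake and lipoprotein receptors, 1 of 10 of PPARs and their partners and 0 of 6 of binding and activation, against 27% of all genes. It lay at ZT1 for 1, 3, 6, 0, 4, 7 and 4 genes of these groups in the same order, against 27.2% of all genes. An unadjusted p under 0.05 among the time points was found for 6, 4, 1, 1, 2, 1 and 2 of them. The highest means by group were taken with TMM factors only. Size factors, upper quartile and total counts moved the median gene between ZT19 and ZT7 by -0.20, -0.25 and -0.20 on the log2 scale. ZT19 was also the time point with the highest median share of reads on genes (64.0%, against 17.5% to 24.8%) and the highest median keratinocyte sum, and their part in these counts was not tested.

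The 8 of these with the smallest p were Slc27a4, Etfdh, Acsl5, Apoe, Acadvl, Mgll, Slc27a1 and Plin3, with adjusted p from 0.0985 to 0.241 (edgeR). Levels of Slc27a4, a fatty acid transport protein, in replicates 1 to 5 were 558, 1282, 750.4, 495 and 1834 at ZT1 and 321, 466, 402, 154 and 270.1 at ZT7. Every ZT1 library lay above every ZT7 library, as in 1.17% of all genes, and ZT7 was lower by 1.61 ± 0.41 (SE) on the log2 scale (adjusted p = 0.671, edgeR). Slc27a1, a fatty acid transport protein of muscle and fat, read 118, 460.2, 387, 419 and 329 at ZT7 and 866, 729, 928, 620.4 and 523 at ZT19. These did not overlap, as in 0.921% of all genes with ZT19 the higher, and the difference was 1.10 ± 0.44 (SE) on the log2 scale (adjusted p = 0.176, edgeR). Etfdh, which passes electrons from fatty acid oxidation to the respiratory chain, had means of 1089 ± 425 (SD, n = 5) at ZT19 and 431 ± 149 at ZT1, a difference of 1.34 ± 0.36 (SE) on the log2 scale (adjusted p = 0.09, edgeR). Acadvl, which starts the oxidation of very long chains, had means of 1886 ± 799 and 931 ± 39.1 at these time points, and the difference was 1.02 ± 0.33 (SE) on the log2 scale (adjusted p = 0.0951, edgeR). Plin3, another droplet coat protein, was highest at ZT19 like Plin2, with 1632 ± 679 there and 796 ± 156 at ZT13 (adjusted p = 0.102, edgeR). Apoe, a lipoprotein component that keratinocytes and macrophages also make, was at 74758 ± 26334 at ZT19 and 26469 ± 8319 at ZT13 (adjusted p = 0.0911, edgeR).

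**Figure D4:**
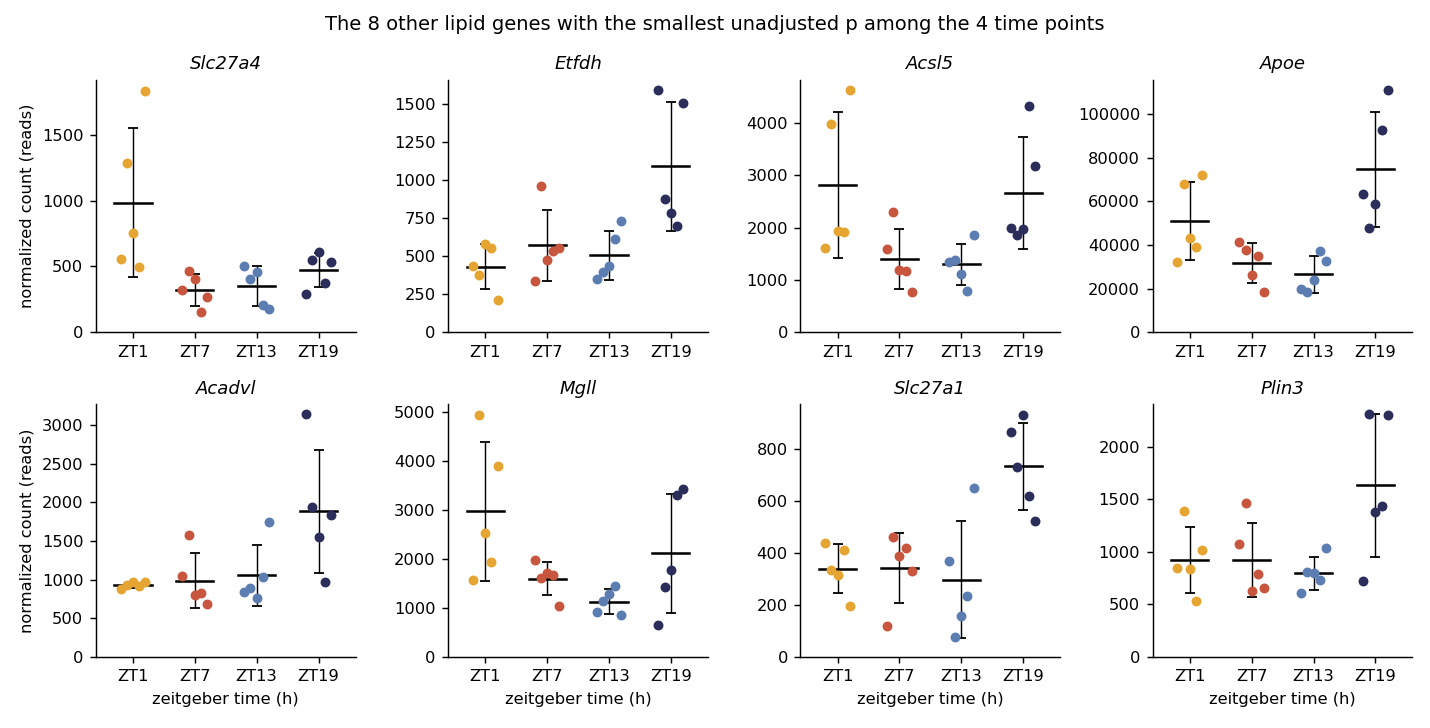
Normalized counts (vertical axis, from 0) of 8 other lipid genes at the 4 zeitgeber times (horizontal axis). Points are libraries, thick lines are means and bars are ± SD (n = 5). Slc27a4 is highest at ZT1 (984 ± 567), and Slc27a1 at ZT19 (733 ± 168).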

How the data were processed

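RNA of sorted dermal LECs was amplified as full-length cDNA and sequenced as single-end reads. The authors mapped reads to mm10 with STAR, counted them with HTSeq (version 1.0.0 in the submitters' processing notes) and deposited raw counts per gene symbol, with reads on no gene, ambiguous and multi-mapped reads set apart; the strand setting and annotation are not given in the sources used here. The authors' own test was DESeq2.

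The rows that name no gene held 47.5% to 96.7% of each table's total and were left out of library sizes. The main test was edgeR 4.0.16 in R 4.3.3, with genes of low counts filtered by time point, TMM factors, a quasi-likelihood fit over all 20 libraries and Benjamini-Hochberg adjustment over 19209 genes at 0.05. The fit tested the 4 time points together, their 6 pairs, and cosine and sine terms of 24 h. Log2 levels used a pseudocount of 1. Floors are 3 counts and cover counting error only, since no molecular identifiers were used. Libraries held 4475111 to 42002363 reads on genes, and no 2 of them were duplicates. Positions and lengths (longest principal transcript) came from GENCODE M21 on GRCm38, which mm10 denotes.

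Named genes were the 10 genes, the 8 other lipid genes with the smallest p, and the 2 patterns nearest each of the 10 among genes with a mean of at least 50. The genes and lists were chosen with earlier results of these data known. The procedure was tested on simulated data, with the outcome not given here. The common coefficient of variation between replicates was 1.00, so a gene that was not called may still differ. Alternatives were DESeq2 1.42.0, other normalizations and filters, a replicate block, the odds of reads on genes as a covariate, leaving out single libraries, and fitting 2 time points alone. The fit without the 2 libraries with the highest share of reads on genes was added after seeing the data.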

Additional observations from a re-analysis of the deposited data

Results flagged for a closer look

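In 3 of the 40 sets of 5 libraries that 10 genes and 4 time points give, 1 library lay far from the other 4 by the ratio of its gap to the whole range on the log2 scale, with a critical value of 0.71. Chance alone gives about 1 such set in 20. Replicate 1 of ZT19 was low for Cd36 (ratio 0.811), with no read where the other 4 held 178 to 596 normalized counts. Replicate 1 of ZT7 was high for Fabp4 (ratio 0.773), at 439 against 36.0 to 63.9. Replicate 2 of ZT19 was low for Angptl4 (ratio 0.76), with no read where the other 4 held 64.5 to 245.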

How the results depend on the processing

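Counts of the 10 genes passing among the time points (0), for a rhythm (0) and between pairs (0) depended on the tool. DESeq2 gave 2, 2 and 5, called 2 and 1 of the other lipid genes, and 672 and 84 of all genes where edgeR called 81 and 6. With no filter on low counts, or with at least 10 counts required in 10 libraries, edgeR called 1 of the 10, Plin2 (adjusted p = 0.0476 and 0.0486). Among all genes, upper-quartile normalization gave 52 calls among the time points, and the odds of reads on genes as a covariate gave 49 and, for a rhythm, 3. Without the 2 libraries with the highest share of reads on genes 1 gene had a rhythm. Same-numbered replicates were not paired (12 of 30 correlations over 0.1, from -0.541 to 0.343), and with a replicate block 31 genes differed among the time points, 0 had a rhythm, and Plin2 had an adjusted p of 0.151. Leaving out 1 library gave 0 to 1 of the 10 genes among the time points (1 without replicate 1 of ZT7 or replicate 2, 3 or 5 of ZT13), 0 for a rhythm, 0 to 1 between pairs, 0 other lipid genes, 30 to 178 genes in all and 0 to 10 with a rhythm. Directions turned for Pdk4 between ZT7 and ZT19 with the covariate (-0.55) and for Lpl between ZT19 and ZT13 without replicate 5 of ZT19 (-0.011, range to 0.67). Size factors, upper quartile and total counts moved the median gene between ZT19 and ZT7 by -0.20, -0.25 and -0.20 on the log2 scale, and Plin2 between these time points stayed between 1.41 and 1.74 over the alternatives that kept all libraries or left out 2. The causes were not tested.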
